A study of Homo sapiens with 2 samples.

Results

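The 10 genes described here encode transcription regulators and were grouped as monocyte versus granulocyte fate factors. They are IRF8, KLF4, KLF6, EGR1, EGR2, GFI1, GFI1B, ID1, ID2 and ZEB2. Of these, GFI1B is known mainly from erythroid cells and megakaryocytes. The 10 genes were chosen by name and not by signal, though with earlier results of these data known. The members' data are all peaks of the deposited list that overlap the gene body or the 50 kb on either side of it in hg19, with bodies given to the nearest kb, and this window held 47 of the 20085 peaks. The peaks come from NB4, an established line of acute promyelocytic leukemia, whose PML-RARA fusion joins the nuclear body protein PML to the retinoic acid receptor alpha. Cells without a stated treatment were profiled with a PML-RARA antibody by CUT&Tag, in which a transposase tethered to the antibody inserts sequencing adapters into nearby chromatin. The 2 replicates form 1 group and 1 cell line, and the authors deposited 1 list merged from both. No control antibody, input or cells without the fusion were analysed here, so no background of the assay can be set beside the peaks. Whether the antibody also binds PML or RARA apart from the fusion was not tested. The sequencing depth is unknown, the list carries no value per replicate, and no spread or test between samples is possible.

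Granulocyte-monocyte progenitors take the monocyte or the granulocyte path under the control of opposed transcription factors. IRF8, KLF4 and the EGR proteins promote monocytes and macrophages, while GFI1 promotes neutrophils by repressing genes of the monocyte programme through the histone demethylase LSD1 and its partner CoREST. ID proteins lack a DNA-binding region and hold E-box factors away from DNA, and ID1 and ID2 are known retinoic acid-induced genes in promyelocytic leukemia cells. PML-RARA is known to block maturation at the promyelocyte stage.

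Peaks lay in the windows of 9 of the 10 genes, and KLF4 had none. Among 280 protein-coding genes with sampled gene models, given the same flanks, 70.4% had at least 1 peak in their window. GFI1B and ID1 had 10 peaks each, IRF8 9, GFI1 5, EGR2 4, KLF6 and ZEB2 3 each, ID2 2 and EGR1 1. A peak within 2 kb of the transcription start site (TSS) was listed for 8 genes, all but KLF4 and ZEB2, against 45.7% of the sampled genes. A peak of the top 10% of the list by total signal, the coverage summed over the bases of a peak, lay in the windows of EGR1, GFI1, GFI1B and ID1, or 4 of 10 genes against 18.6% of the sampled genes.

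**Figure D1:**
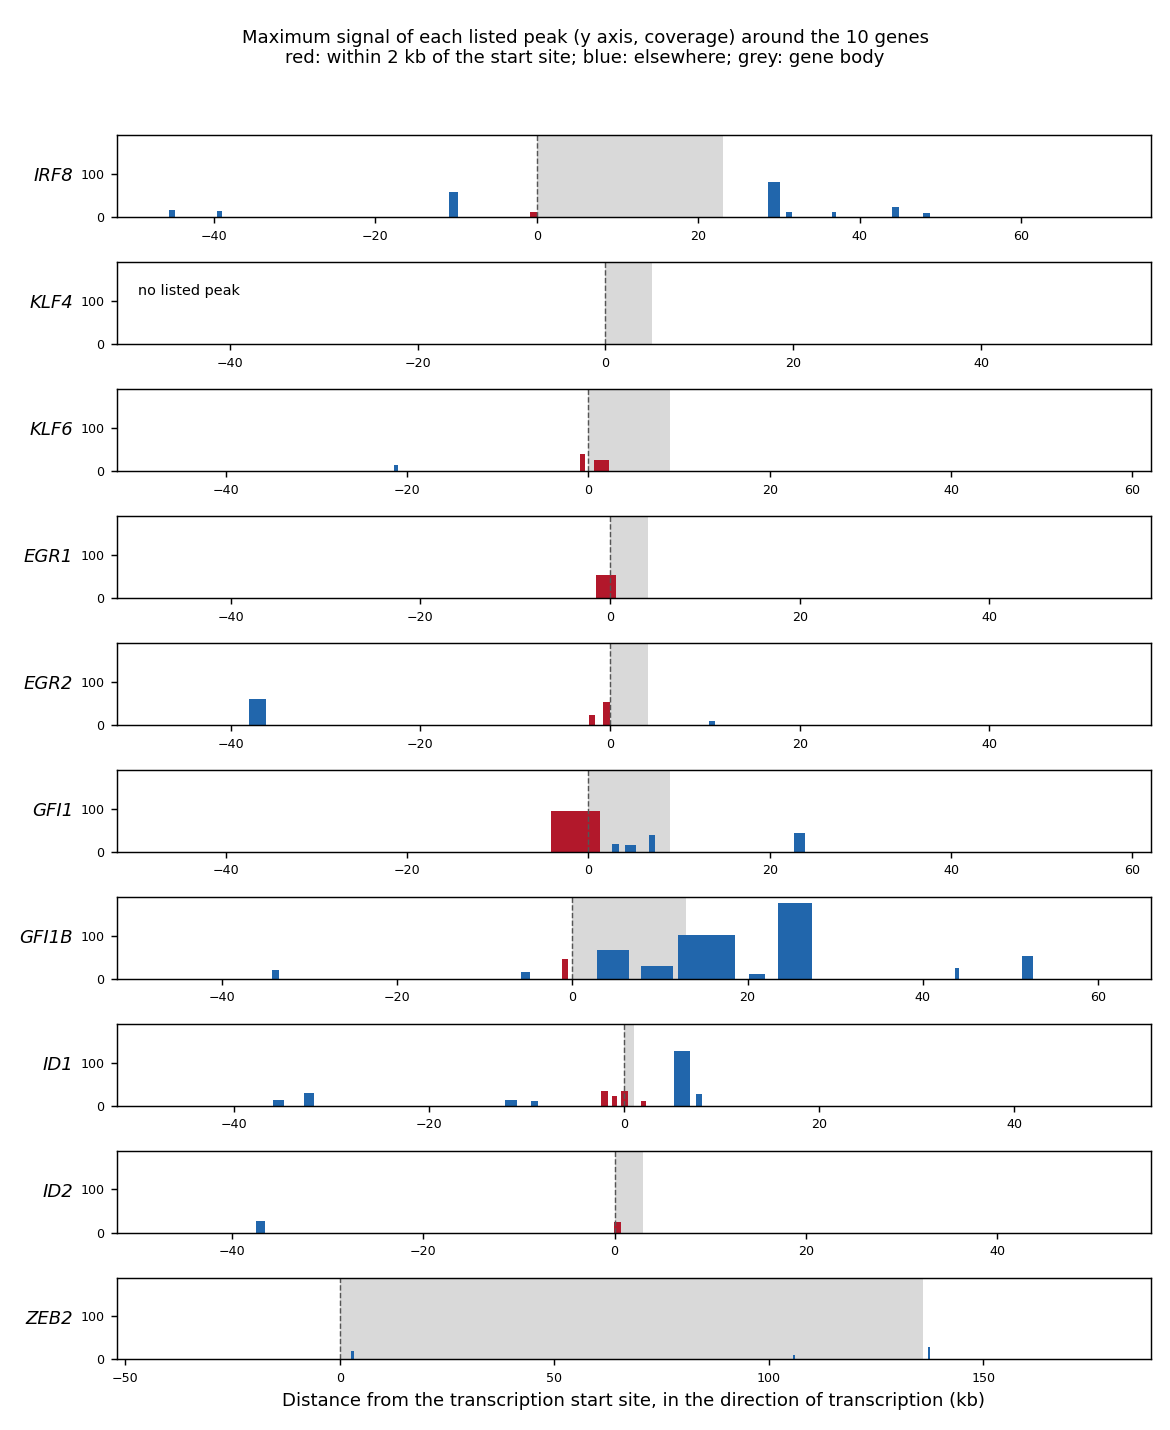
Position and maximum signal (highest coverage, y axis, 0 to 190) of every listed peak around each gene, with distance from the TSS in kb on the x axis, whose range differs between genes. Red bars lie within 2 kb of the TSS, blue bars elsewhere, grey marks the gene body; GFI1B carries a row of broad peaks from its body to beyond its end, EGR1 a single peak at its TSS and KLF4 none.

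RefSeq promoter sequences (GRCh38.p14) were found for all 10 genes, with 16 promoters between them because IRF8, EGR2, GFI1 and GFI1B have several. Only the 250 bases before each TSS were searched, on both strands. The sequences below are shown because EGR1, GFI1 and ID1 have both a peak over the TSS and a match, while KLF4 has a match and no peak near it. EGR1 is included only through its CArG boxes, a search added after the promoter sequences had been seen. IRF8 and ID2 also have a peak that reaches the TSS: the IRF8 match is shown in its own line further on, and the ID2 promoter, like those of KLF6 and ZEB2, held no match and is not printed. Each is printed 5′ to 3′ on the strand of the gene and ends at the base before the TSS. Capitals mark CArG boxes (CC, then 6 bases that are each A or T, then GG), the element bound by serum response factor, in EGR1, the retinoic acid receptor hexamer AGGTCA on the opposite strand (TGACCT) in GFI1 and the hexamer GGGTCA in ID1. In KLF4 they mark GAGGAA, a core of the kind that the ETS factor PU.1 binds.
EGR1 (chr5:138465229-138465478, plus strand): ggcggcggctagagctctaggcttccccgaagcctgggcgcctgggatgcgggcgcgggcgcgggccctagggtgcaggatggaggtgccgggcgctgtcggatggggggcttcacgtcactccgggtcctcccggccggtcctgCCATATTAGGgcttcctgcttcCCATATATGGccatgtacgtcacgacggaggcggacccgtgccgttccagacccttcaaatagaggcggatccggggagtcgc
GFI1, most upstream promoter (chr1:92486926-92487175, minus strand): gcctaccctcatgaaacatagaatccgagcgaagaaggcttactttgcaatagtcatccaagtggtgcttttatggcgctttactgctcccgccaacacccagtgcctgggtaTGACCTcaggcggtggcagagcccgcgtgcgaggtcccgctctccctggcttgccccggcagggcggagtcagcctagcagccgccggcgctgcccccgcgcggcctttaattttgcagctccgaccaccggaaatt
ID1 (chr20:31605039-31605288, plus strand): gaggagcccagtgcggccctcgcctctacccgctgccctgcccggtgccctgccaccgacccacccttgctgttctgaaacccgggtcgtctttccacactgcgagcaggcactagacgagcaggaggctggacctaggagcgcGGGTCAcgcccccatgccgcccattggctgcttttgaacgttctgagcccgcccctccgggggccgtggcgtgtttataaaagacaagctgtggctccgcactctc
KLF4 (chr9:107489770-107490019, minus strand): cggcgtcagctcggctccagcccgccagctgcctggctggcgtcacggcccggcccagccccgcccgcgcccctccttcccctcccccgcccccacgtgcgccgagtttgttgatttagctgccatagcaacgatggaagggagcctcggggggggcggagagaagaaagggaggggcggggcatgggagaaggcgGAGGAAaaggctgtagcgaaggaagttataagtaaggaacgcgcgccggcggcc

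A further 3 matches are shown in 30 bases of sequence around them, with only the named match in capitals. They are the AGGTCA of the more downstream IRF8 promoter, the GGTTCA of the most upstream EGR2 promoter and the CArG box of the most downstream one. The stretch around this CArG box also holds GAGGAA on the opposite strand (TTCCTC), left in small letters.
IRF8 (chr16:85902821-85902850, plus strand): ctcagggctgtgAGGTCAtggaggccagca
EGR2, GGTTCA (chr10:62819252-62819281, minus strand): tgtttcagcggaGGTTCAataaaggcctcc
EGR2, CArG box (chr10:62816418-62816447, minus strand): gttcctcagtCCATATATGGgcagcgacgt

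A search was made for 4 hexamers that retinoic acid receptors bind. At least 1 of them was present in a promoter of IRF8, EGR2, GFI1 and ID1, that is in 4 of the 16 member promoters, while 33.8% of all 35116 promoters in the table held one. AGGTCA alone stood in 12.1% of all promoters, GGGTCA in 12.1%, AGTTCA in 8.8% and GGTTCA in 7.16%. No pair of hexamers stood in any member promoter. GAGGAA was present in 5 member promoters, of KLF4, EGR2, GFI1 and both of GFI1B, against 23.6% of all promoters. The CArG box was not among the words planned and was added after the member promoters had been seen. It stood in 1.16% of all promoters, among them those of EGR1, with 2 boxes, and EGR2. The word CCATATATGG, taken from these EGR1 and EGR2 promoters, was present in 9 of all promoters, theirs included. These shares are therefore descriptions of sequences already seen. CArG boxes are the elements through which serum and growth factors are known to induce EGR genes. The median GC content was 64.2% in member promoters and 58% in all, and the median ratio of observed to expected CpG was 0.807 and 0.558. A match is a description of these letters and shows no binding, and the hg19 peaks were not placed on the GRCh38 sequences.

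Among the genes of the monocyte path, IRF8, an interferon regulatory factor needed for monocytes and dendritic cells, had many peaks of modest signal. At its TSS lay chr16:85932122-85933002, from 878 bp before to 2 bp after the kb-rounded start, with a total signal of 4309 and a maximum of 12. This was a weak TSS peak: 18.8% of the sampled genes' strongest TSS peaks had a lower total. The strongest peak, chr16:85961693-85963150, lay 5693 to 7150 bp past the end of the gene, with a total of 25352 and a maximum of 82. The peak next in total, 14139 with a maximum of 58, stood at chr16:85922135-85923232, 10865 to 9768 bp before the TSS. The other 6 peaks had totals of 2725 to 5695, all below the list median of 6479. None had its midpoint within the gene body, and 62.1% of the summed signal of 67003 lay downstream of the gene. The 5 downstream peaks formed a run with gaps of at most 6931 bp.

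IRF8 also shows what the window edge leaves out. The outermost upstream peak within its window lay 44815 bp from the gene (total 4228), and the next one outside lay 52878 bp away (total 3096). On the downstream side the outermost peak within lay 24786 bp past the gene end (total 2862), while the nearest one outside lay 59731 bp past it with a total of 41619. With flanks of 100 kb the IRF8 count was 19.

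KLF4, a zinc finger factor of monocyte differentiation, had no peak within 50 kb and none within 100 kb. Its nearest listed peak began 125523 bp from the TSS on the upstream side (total 5813), and on the downstream side the nearest lay 200543 bp past the gene (total 15044). Of hg19 tiles as long as its window, 23.9% held at least 1 peak, and 29.6% of the sampled genes shared its empty window. Because the list gives only called peaks, signal below the authors' threshold cannot be told apart from no signal.

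KLF6, an early-response relative of KLF4, had a pair of peaks at its TSS. Distances are from a TSS rounded to the kb, which can be off by up to 500 bp, so whether a peak edge within that distance lies before or after the true start is not resolved for any gene. One lay within the gene at chr10:3824755-3826403, 597 to 2245 bp after the TSS, with a total of 12059 and a maximum of 26. The shorter peak chr10:3827330-3827933 ended 330 bp before the rounded TSS, so the true start may lie under it, and had a lower total of 8166 but a higher maximum of 39. The remaining peak, 21418 to 21002 bp upstream, had a total of 2603, close to the lowest of the list (2577).

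EGR1, an early-response zinc finger factor that favours macrophages, had its whole signal in 1 peak. It covered chr5:137799525-137801656, from 1475 bp before to 656 bp after the TSS, and so any start that rounds to the stated kb. Its total of 44630 ranked 1123 in the list, its maximum was 54, and 94.5% of the sampled genes' strongest TSS peaks had a lower total. The next peaks outside the window lay 126328 bp upstream (total 10554) and 73617 bp downstream (total 19029). The EGR1 locus thus had a strong peak at the start and no other peak within 50 kb.

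EGR2, its close relative, had 4 peaks, of which 3 lay upstream. The peak chr10:64576030-64576755 ended 30 bp before the rounded TSS and may cover the true one, with a total of 14362 and a maximum of 53, nearly the height of the EGR1 peak at a shorter length (725 bp against 2131 bp). A weaker peak, 2247 to 1587 bp upstream, had a total of 4991. RefSeq places a further pair of EGR2 promoters 2801 and 2409 bp upstream of the most downstream one in GRCh38. The strongest EGR2 peak was distal: chr10:64612263-64614085, 38085 to 36263 bp upstream, had a total of 27841 and a maximum of 61. The 1 downstream peak, with a total of 2642, lay 6390 to 7073 bp past the gene end, on the side where ADO is the neighbouring protein-coding gene.

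Of the repressor pair, GFI1, which neutrophils require, had the strongest TSS peak of the 10 genes. This peak, chr1:92947737-92953099, was 5362 bp long and ran from 4099 bp before to 1263 bp after the TSS. Its total of 108059 ranked 217 in the list, its maximum was 94, and it exceeded 98.4% of the sampled genes' strongest TSS peaks. RefSeq lists 3 GFI1 promoters that span 3111 bp in GRCh38, so a single TSS does not describe this start region. A further 3 peaks lay in the gene body, with totals of 9660, 6999 and 7044. Together with the TSS peak they formed a run that covered 70.2% of 11.5 kb. One more peak, 13699 to 14906 bp past the gene end, had a total of 13035. All 5 GFI1 peaks lay above the list median of total signal, as did the 1 of EGR1 and both of ID2.

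GFI1B, the paralog of GFI1 known mainly from erythroid cells and megakaryocytes, had the highest signal of the set. Its summed total of 421234 was 48.5% of the signal of the 10 windows and 4.52 times that of ID1, which had the same number of peaks. Peaks covered 21.0% of its window, and 2.14% of the sampled genes had as much covered. The signal did not stand at the TSS: the peak there, chr9:135852854-135853488, ended 512 bp before the rounded start with a total of 8504 and a maximum of 46. It lay in a run of 7 peaks, chr9:135848135-135881343, that covered 63.8% of 33.2 kb with gaps of at most 3645 bp.

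Within this run the broad peaks followed one another from the gene body to beyond its end. The body held chr9:135856816-135860439 (total 51731, maximum 67) and chr9:135861851-135865531 (total 31807, maximum 30). Across the gene end lay chr9:135866074-135872546, the longest of all 47 peaks at 6472 bp, with a total of 106477 and a maximum of 101. The strongest was chr9:135877435-135881343, 10435 to 14343 bp past the gene end, with a total of 184881 (rank 70 in the list) and a maximum of 177. Its signal per base of 47.3 compares with a list median of 7.53. By the midpoint of each peak, 75.8% of the GFI1B signal lay downstream of the gene and 4.39% upstream. The peak across the gene end is counted whole as downstream. The outermost peaks of the window, at 34312 to 33508 bp before the TSS (total 5826) and 38320 to 39548 bp past the gene end (total 15252), lie towards the neighbouring genes TSC1 and GTF3C5. RefSeq also lists a GFI1B promoter 33163 bp upstream of the downstream one in GRCh38, and to which gene these peaks belong was not tested.

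**Figure D2:**
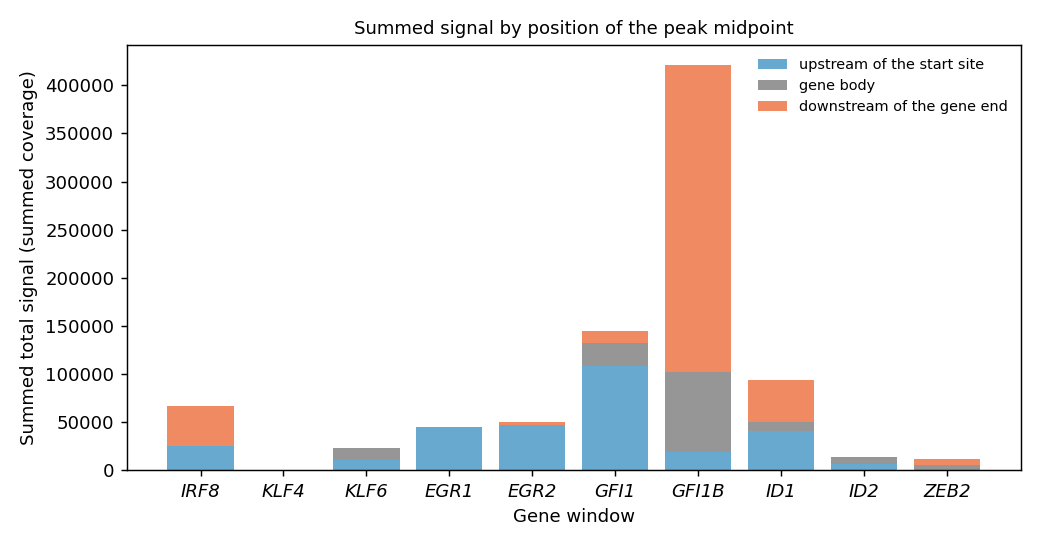
Summed total signal (y axis, summed coverage) in each gene window, split by whether the midpoint of a peak lies upstream of the TSS (blue), in the gene body (grey) or downstream of the gene end (orange). GFI1B reaches 421234, mostly downstream, while GFI1, EGR1 and EGR2 have most of their signal upstream. In GFI1 and EGR1 the upstream part is 1 peak that spans the TSS and is counted whole as upstream.

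ID1, an inhibitor of E-box factors, had 10 peaks, of which 8 formed a run, chr20:30180852-30201012, with gaps of at most 6474 bp. The peak over the TSS, chr20:30192719-30193455, had a total of 9096 and a maximum of 33. A further 3 peaks lay within 2 kb of the TSS, with totals of 9077 and 5335 upstream and 3213 downstream. The strongest peak lay 4114 to 5825 bp past the gene end at chr20:30198114-30199825, with a total of 33301 and a maximum of 128, which ranked 593 by height but 1703 by total. Upstream signal was 44.0% and downstream signal 46.2% of the summed 93285. HM13 and COX4I2 are the protein-coding neighbours within 50 kb in GRCh38, and to which gene the outer peaks belong was not tested.

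ID2, the other inhibitor, had far fewer. The peak over its TSS, chr2:8821938-8822686, had a total of 6845 and a maximum of 25, and the other one, 37453 to 36474 bp upstream, had 6963 and 26. Both were close to the list median of 6479. A stronger peak lay outside the window: chr2:8682477-8688853, 133 kb upstream of the ID2 TSS, had a total of 261606, which ranked 29 in the list.

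ZEB2, an E-box-binding repressor that monocytes and dendritic cells need for their development, had 3 weak peaks in the longest window, 236 kb. The one nearest to the TSS, chr2:145274816-145275375, lay 2625 to 3184 bp inside the gene with a total of 3217 and a maximum of 19. Another lay 105544 to 106140 bp into the gene (total 2644), and the third, 1147 to 1587 bp past its end, had a total of 6084. All were below the list median.

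**Figure D3:**
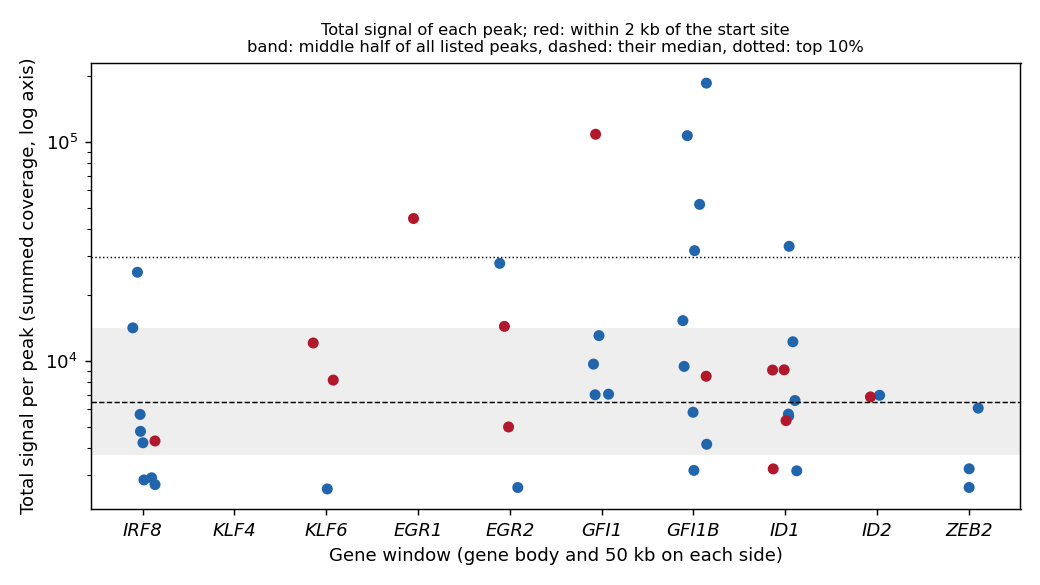
Total signal of each of the 47 peaks (log axis) by gene, with peaks within 2 kb of the TSS in red, the middle 50% of all listed peaks as a grey band, their median of 6479 dashed and the top 10% threshold dotted. Of the 7 peaks above the dotted line, 4 belong to GFI1B and 1 each to EGR1, GFI1 and ID1.

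The 47 peaks had values close to those of the list as a whole. Their median total was 6963 against 6479 for the list, their median maximum 25 against 22, their median length 818 bp against 893 bp, and 55.3% of them lay above the list median. The 7 peaks in the top 10% were 14.9% of the 47. Without the window of GFI1B the median total was 6591 over 37 peaks. Among the 8 genes with a TSS peak, the strongest one had a median total of 10578, and among the 128 sampled genes with one it was 9263 (interquartile range 5145 to 15706). In IRF8, EGR2, GFI1B, ID1 and ID2 the strongest peak lay outside the TSS zone, and in KLF6, EGR1 and GFI1 within it.

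Over the 1207 kb of the 10 windows there were 38.9 peaks per Mb, 5.89 times the 6.61 per Mb of hg19 chromosomes 1 to 22 and X. The sampled gene windows had 19.1 per Mb, so the ratio to windows around genes was 2.04. Peaks covered 5.12% of the member windows and 2.44% of the sampled ones. Both sampled values are pooled over length, so that genes with long bodies, up to 1437 kb, weigh most. This was not adjusted for in the ratio of 2.04. The sampled windows were longer (median 134.5 kb against 107 kb), and they hold a median of 2 peaks (interquartile range 0 to 5) where the 10 genes had a median of 3.5. Without GFI1B the summed signal fell from 869366 to 448132, the covered share was 3.48% and the density ratio 1.77.

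**Figure D4:**
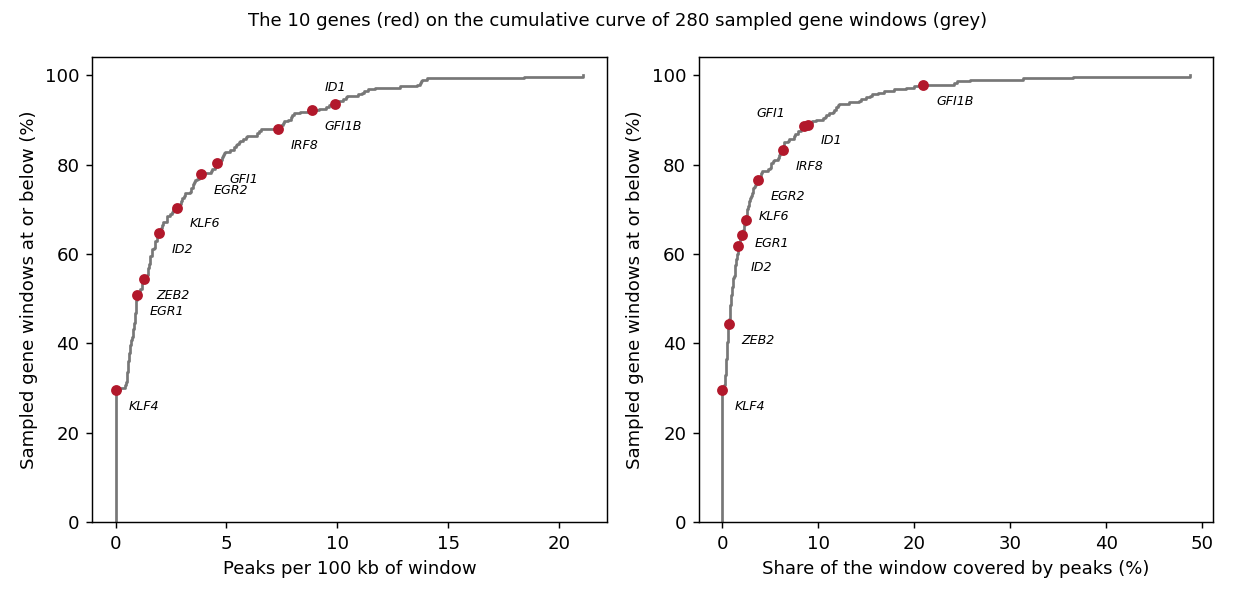
Peaks per 100 kb of window (left) and share of the window covered by peaks (right) for the 10 genes (red) on the cumulative curve of the 280 sampled gene windows (grey, percent of windows at or below). KLF4 sits with the 29.6% of windows without a peak and GFI1B near the top of the curve by covered share.

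The counts were also set against windows of equal length, all peaks and flanks of 50 kb taken. Tiles of the same length laid end to end along hg19 held at least 10 peaks in 1.04% of cases for the ID1 length and 1.3% for the GFI1B length. At least 9 stood in 1.97% of tiles of the IRF8 length. As many as the 5 of GFI1 were in 4.65% of tiles, the 4 of EGR2 in 5.97%, and the 3 of KLF6 in 9.04%. For ID2, with 2, the share was 13.1%, for ZEB2 17.4% and for EGR1, with 1, it was 23.8%. Tiles include gene deserts and assembly gaps. Set against windows around sampled genes, 10.0% had at least 10 peaks, 12.5% at least 9, 25.7% at least 5 and 31.8% at least 4. The counts of ID2, ZEB2 and EGR1 were common around sampled genes: 52.1% of sampled windows had at least 2, 39.6% at least 3 and 70.4% at least 1. The order of the genes by count did not hold for other choices. Of peaks at or above the list median of total signal, IRF8 had 2, GFI1 and ID1 5 each, GFI1B 7 and ZEB2 0. With flanks of 100 kb, IRF8 had 19, GFI1B 17, ID1 12, ID2 7 and GFI1 5.

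Some windows differed widely in peak density from the cytogenetic bands around them, while that of ID2 was close to its band. The ID2 band, 2p25.1, held 86 peaks (16.9 per Mb), of which 2.33% lay in the ID2 window at 19.4 per Mb. In 5q31.2, with 51 peaks (15.5 per Mb), the EGR1 window held 1.96%, at 9.62 per Mb. The band's strongest peak (total 406954) lay 1237 kb from the EGR1 TSS. The strongest peak of the IRF8 band, 16q24.1, with a total of 171070, lay 282 kb from IRF8. The IRF8 window held 7.26% of the 124 peaks, at 73.2 per Mb against 42.8 in the band. The GFI1 window held 38.5% of the 13 peaks of 1p22.1, at 45.9 per Mb against 4.81 in the band. The strongest of that band was the GFI1 TSS peak. The strongest peak of 9q34.13 was the downstream peak of GFI1B. The EGR2 window had 38.5 peaks per Mb in a band, 10q21.3, of 2.95 per Mb. ZEB2 and KLF4 lay in bands of few peaks, 1.52 and 1.61 per Mb.

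**Figure D5:**
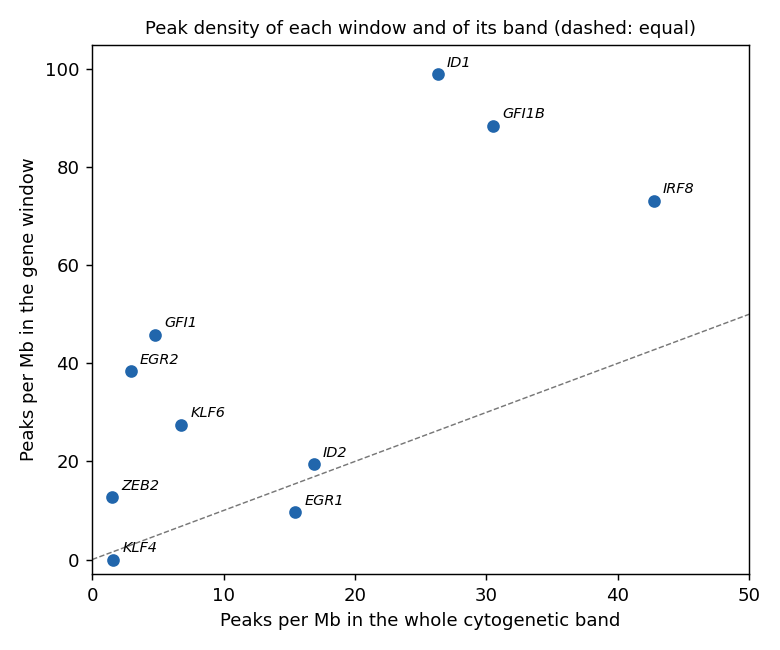
Peaks per Mb in each gene window (y axis) against peaks per Mb in the whole hg19 cytogenetic band that holds the gene (x axis), with equal densities dashed. EGR1 and KLF4 lie below the dashed line, ID2 close to it, and GFI1, EGR2, GFI1B and ID1 well above it.

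Other genes of the same fate circuit can be placed only by band, without a distance to any peak. Of 32 listed genes, 31 could be placed, and 26 of these lay in bands with more peaks per Mb than the median band (3.43). So did 7 of the 10 members. Among all 741 bands compared the share was 49.9%, which the use of a median fixes. It is a share of bands and not of genes. Gene density was not adjusted for. Among the partners of the EGR proteins, the band of the co-repressor gene NAB2 had 37.3 peaks per Mb and that of NAB1 had 4. The bands of the GFI1 partners KDM1A, which encodes LSD1, and RCOR1, which encodes CoREST, had 11.1 and 13.9. For KLF2, a relative of KLF4, the value was 47.8, the highest of the 31, followed by 39.1 for TCF3, an E-box factor held by ID proteins. SPI1, the gene of PU.1, lay in a band with 19.1 and CEBPA, the gene of a granulocyte factor, in one with 10.3.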

How the data were processed

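CUT&Tag data of 2 replicates of NB4 cells were deposited by the authors as 1 merged list of SEACR peaks in hg19 coordinates. Trimmomatic, Bowtie2, SAMtools, bedtools and SEACR are named in the submitters' processing notes; the sources used here give no versions, thresholds, control track or way of merging. The deposited signal columns were read as SEACR's total signal (coverage summed over a peak) and maximum signal: the former exceeds the peak length in all 20085 rows and never the length times the maximum. No scaling to depth is stated. Peak positions are printed as listed; starts may count from 0.

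Gene bodies were taken in kb as fixed with the member list and need not span every transcript. The GFI1B body is 13 kb, while RefSeq lists GFI1B promoters 33163 bp apart. The members, lists and rules were chosen with earlier results of these data known. Any overlap with the body or its flanks of 50 kb counted, and a TSS peak was one that reached within 2 kb of the TSS, which is known to the nearest kb. The rule for names takes all 10 genes, their strongest and tallest peaks and the one nearest to the TSS; other peaks were named after their values were seen, and the top 10% was chosen then too. For comparison, 280 protein-coding gene models on chromosomes 1 to 22 and X from pyranges 0.1.4, rounded to kb, were given the same flanks and TSS zone. Each sampled body spans the transcripts on its own chromosome, which member bodies need not do. The gene rows as shipped differed for 2 genes, TRIM40 and STK19, whose rows joined positions on haplotype contigs to chromosome 6, and would give 14.2 peaks per Mb and a ratio of 2.74; this was corrected after the values were seen. They are a software example with 45 genes on chromosome 1 and no member, and their build, not named, is read as hg19: 45.7% had a TSS peak, against 7.86% with the TSS moved by 100 kb either way. Cytogenetic bands came from circlize 0.4.16 and chromosome lengths from GenomeInfoDb 1.38.1. Bands were matched by name to GRCh38 gene positions, leaving out bands whose length differs by over 10%. A run joins at least 3 peaks with gaps of at most 10 kb. Window counting was tested on simulated data. With 1 merged list no test between samples was made. Exon, intron and UTR placement was not made, as no hg19 annotation was used here. The search for CArG boxes was added after the promoter sequences had been seen. Alternatives covered flank, TSS zone, stricter peaks, overlap by midpoint, merging, leaving out GFI1B and the gene rows as shipped.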

Additional observations from a re-analysis of the deposited data

How the results depend on the processing

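With flanks of 10 kb the 10 windows held 31 peaks with a summed signal of 567842 and were covered to 10.6%, and with flanks of 100 kb they held 73 peaks. Counting only peaks at or above the list median of total signal left 26, and only those at or above the third quartile of maximum signal left 15, which covered 2.70%. By that last rule 5 genes had a TSS peak: KLF6, EGR1, EGR2, GFI1 and GFI1B. Leaving out GFI1B, chosen after seeing the data, gave a summed signal of 448132. The other alternatives for these 4 results stayed within 1.5 times, and a TSS zone of 5 kb added ZEB2. Against sampled gene windows with the same settings, the ratio of peak density ran from 1.67 (100 kb) to 4.98 (10 kb). The sampled density itself was 19.8 per Mb with flanks of 100 kb and 15.3 with 10 kb. Sampled gene bodies were longer, up to 1437 kb, and fill more of a window with short flanks. This was not adjusted for, so the ratio of 4.98 does not measure closeness to the genes alone. The ratio of genes with a TSS peak ran from 1.75 to 3.41. With the gene rows as shipped, in place of bodies corrected after seeing the data, the density ratio was 2.74. No paired analysis was possible because both replicates are merged in 1 list of 1 group; leaving out a replicate was not possible for the same reason. Depth is unknown, so a gene without a listed peak, such as KLF4, may have signal under the threshold of the authors.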
